A study of Mus musculus with 12 samples.

Results

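The red cell membrane and its skeleton were followed here through 8 genes, Slc4a1, Epb42, Epb41, Sptb, Ank1, Rhag, Rhd and Kel, among the 21853 genes of a table of RNA levels in mouse bone marrow. The genes were listed by the function of their proteins and found in the table by matching its gene identifiers to GENCODE vM21 symbols, and each matched 1 row. The study sequenced RNA of whole bone marrow cells from B6 mice, in 4 groups of 3 libraries collected 14 days after the irradiated mice had received total body irradiation (TBI). Control mice were not irradiated, and no gavage or vehicle is stated for them. The TBI group received 5 Gy of gamma rays at 0.66 Gy/min and, by gavage, 100 µL of olive oil as the vehicle. The TBI+DEIX group received the same irradiation and then DEIX at 25 mg/kg body weight by mouth, once a day for 14 days, and the DEIX group received DEIX without irradiation. The series title names deinoxanthin, a carotenoid pigment, for which DEIX is taken as the short form. Vehicle is stated for the TBI group alone, so an effect of irradiation or of DEIX against untreated controls cannot be told apart from an effect of gavage. TBI+DEIX and TBI may likewise differ in vehicle as well as in DEIX. The labels give 3 numbered replicates a group and do not say whether each came from a separate animal, so p-values measure the spread between these libraries, which may be technical.

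A mammalian red cell has no internal scaffold, and its shape and elasticity come from a protein mesh under the membrane. Spectrin, whose beta chain is encoded by Sptb, forms the strands of that mesh, and protein 4.1, encoded by Epb41, helps to tie spectrin to actin at the junctions. Ankyrin-1, encoded by Ank1, links spectrin to band 3, the chloride and bicarbonate exchanger encoded by Slc4a1, and protein 4.2, encoded by Epb42, strengthens that link. Rhag encodes the Rh-associated glycoprotein and Rhd the mouse Rh polypeptide, which stand together in the membrane, and Kel encodes the Kell blood group glycoprotein, a surface peptidase. All 8 are made while erythroblasts mature in the marrow, and Ank1, Sptb and Epb41 also have forms in other tissues, among them muscle and brain. GATA1 and KLF1, the main transcription factors of erythroid genes, bind DNA at GATA and CACCC motifs.

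Promoters from RefSeq on build GRCm38.p6, each running from 250 bases before to 50 bases after a start site, were at hand for 6 of the 8 genes, as 8 sequences of 300 bases because Epb41 had 3 start sites. Those of Epb42, Rhag, Rhd and Kel are shown because Epb42, Rhd and Kel were among the genes called lower after irradiation with DEIX, and Rhag was not. Capitals mark the GATA motif (GATA after A or T and before A or G) and CACCC, each on either strand, and each line reads 5′ to 3′ on the strand of the gene. The windows are chr2:121036828-121037127 on the minus strand for Epb42, chr17:40810899-40811198 on the plus strand for Rhag, chr4:134864286-134864585 on the plus strand for Rhd and chr6:41704276-41704575 on the minus strand for Kel.
Epb42: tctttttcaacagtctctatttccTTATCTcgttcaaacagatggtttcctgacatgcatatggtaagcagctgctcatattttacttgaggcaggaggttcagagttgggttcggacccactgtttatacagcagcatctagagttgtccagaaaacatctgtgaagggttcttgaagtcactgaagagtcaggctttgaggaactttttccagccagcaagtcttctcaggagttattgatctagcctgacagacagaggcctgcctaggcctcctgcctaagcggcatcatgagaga
Rhag: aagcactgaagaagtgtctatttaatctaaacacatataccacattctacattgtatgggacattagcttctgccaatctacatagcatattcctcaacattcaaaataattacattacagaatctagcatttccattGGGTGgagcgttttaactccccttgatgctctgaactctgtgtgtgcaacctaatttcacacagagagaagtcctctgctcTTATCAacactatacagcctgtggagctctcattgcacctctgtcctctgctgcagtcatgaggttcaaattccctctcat
Rhd: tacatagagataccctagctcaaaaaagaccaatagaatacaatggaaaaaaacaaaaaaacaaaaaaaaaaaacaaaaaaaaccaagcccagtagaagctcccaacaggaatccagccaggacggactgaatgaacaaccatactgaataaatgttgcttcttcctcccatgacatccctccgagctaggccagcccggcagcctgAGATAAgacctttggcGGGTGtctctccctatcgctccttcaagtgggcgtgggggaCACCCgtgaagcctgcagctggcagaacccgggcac
Kel: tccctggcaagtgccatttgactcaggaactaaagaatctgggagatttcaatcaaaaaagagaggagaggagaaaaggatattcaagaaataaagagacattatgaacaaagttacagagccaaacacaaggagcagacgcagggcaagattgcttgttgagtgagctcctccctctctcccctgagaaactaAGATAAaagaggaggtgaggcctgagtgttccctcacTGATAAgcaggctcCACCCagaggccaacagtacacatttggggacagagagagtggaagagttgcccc
The GATA motif stood in 7 of the 8 promoters, against 29.8% of the 32851 mouse promoters of the same length, and CACCC stood in 4 of 8, against 57.5%. The Kel window held 2 GATA motifs, which began at positions -56 and -19, where -1 is the last base before the start site. The Rhd motif began at position -43, the Rhag motif at -31 and the Epb42 motif at -226. Sptb carried GATA at position 13, after its start, and CACCC at -95. Of the 3 Epb41 windows, 2 held GATA, none held CACCC, and 2 held the looser motif CCNCNCCC, which was present in 4 of the 8 promoters and in 49.5% of all promoters. CCNCNCCC can overlap a CACCC match, as it did in Sptb. A match describes the letters of the window only.

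Values were FPKM, fragments per kilobase of transcript and scaled to the mapped fragments of the library, which take transcript length into account, so that levels can be set side by side between genes. The libraries summed to 493683 to 848843 FPKM and held 10359 to 10832 genes at 1 FPKM or more. The neutrophil genes S100a8 and S100a9 read 107900 and 87650 FPKM in TBI+DEIX replicate 3, the library with the highest sum. Both read 0 in control replicate 3 and TBI+DEIX replicate 2. The sums thus depended in part on these genes, and so did any rescaling of the libraries to the same sum. Read totals were not given, but the spacing of the lowest values gave the FPKM that 1 read was worth, relative to control replicate 1: 0.876 to 1.32 over the controls, 0.894 to 1.19 in TBI, 1.51 to 2.35 in TBI+DEIX and 1.11 to 1.66 in DEIX. By this measure TBI+DEIX replicates 1 and 3 were the shallowest libraries, followed by DEIX replicate 1, but the estimates were uncertain in several libraries. The best and next best spacings fitted 13 and 11 genes in TBI+DEIX replicate 1 and 20 and 19 in DEIX replicate 1. They fitted 28 and 27 genes in control replicate 3 and in TBI replicate 1. In TBI+DEIX replicate 3 they fitted 41 and 31 genes, and the next best value was 0.951, inside the control range, in place of 1.9. TBI+DEIX replicate 1 also stood apart in the markers of other cells: the summed FPKM of 6 B cell markers was 4.87 there, against 51.5 and 85.3 in the other TBI+DEIX libraries and 287 to 368 in controls. TBI replicate 1 was low for its group too, at 16.7 beside 124 and 155 in TBI replicates 2 and 3. Limma's gene-by-gene array weights, which fall as a library departs from its group, gave TBI+DEIX replicate 1 the lowest weight, 0.0709. They gave control replicate 2 a weight of 11, beside 1.57 and 0.809 for control replicates 1 and 3. TBI replicate 2 had 3.76, beside 0.475 and 0.783 for TBI replicates 1 and 3. Fits with array weights thus rested largely on control replicate 2 for the controls and on TBI replicate 2 for TBI.

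In control marrow Slc4a1 was the most abundant of the 8 transcripts, at 97.2 ± 14.1 FPKM (SD, n = 3), and Epb42 the least, at 10.4 ± 1.21. Between them came Rhd at 44.9 ± 2.93, Epb41 at 34.9 ± 2.19, Kel at 32.2 ± 5.66, Rhag at 26.2 ± 2.32, Sptb at 16.4 ± 1.63 and Ank1 at 14.9 ± 1.04. The control libraries put Slc4a1 above Rhd, Rhd above Epb41, Rhag above Sptb and Ank1 above Epb42 without overlap, while Epb41, Kel and Rhag overlapped with their neighbours, as did Sptb and Ank1. The genes of the skeleton and its anchors were thus all below the exchanger they are tied to, with Epb41 the highest of them. The order was not the same in TBI+DEIX, where Epb41 had the highest mean, 37.6 ± 4.51, and Slc4a1 came next at 25.3 ± 21.9, although no neighbours in that order were clear of each other. Replicates lay close together in controls and wide apart elsewhere: the median SD of the 8 genes on the log2 scale was 0.127 for the controls and 0.718, 0.701 and 0.982 for TBI, TBI+DEIX and DEIX, while the root mean square SD over all tested genes was 0.199, 0.253, 0.442 and 0.248.

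**Figure D1:**
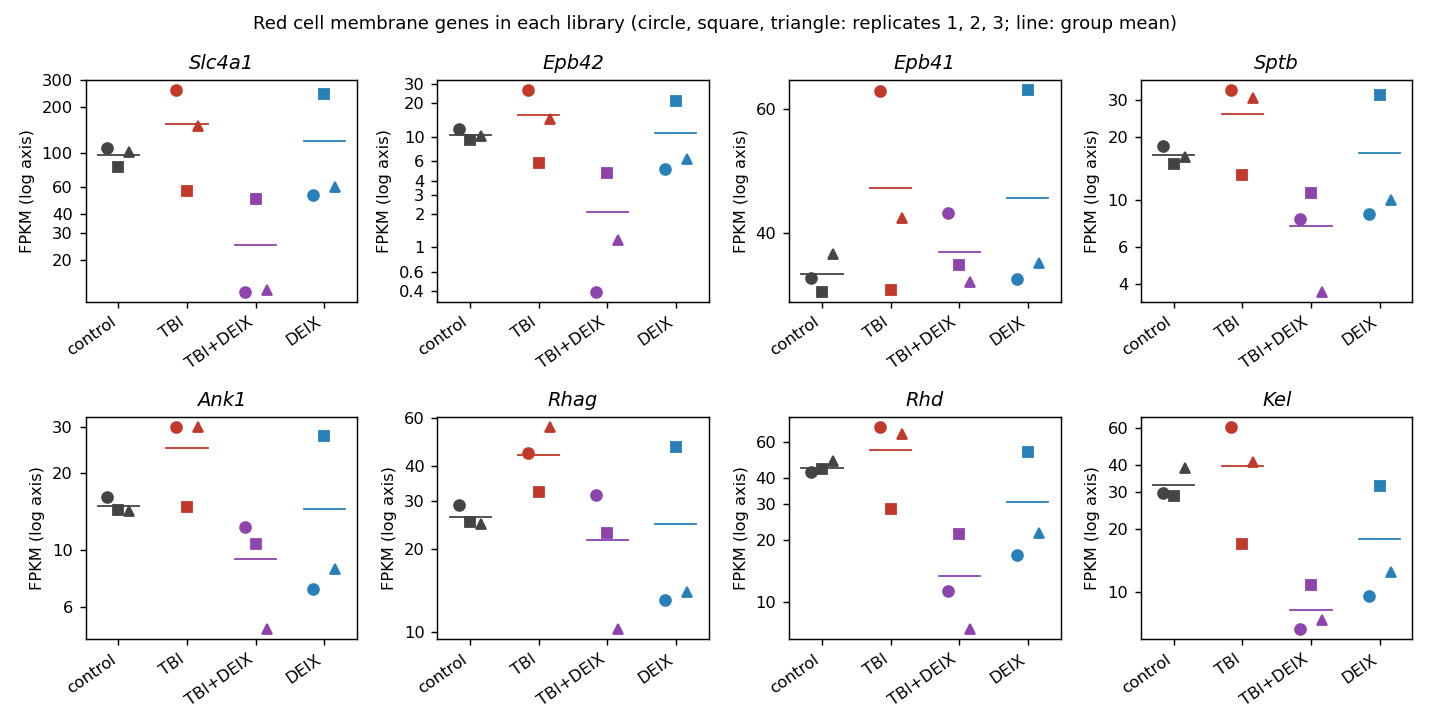
FPKM of the 8 genes (log axis) in every library, by group; circles, squares and triangles are replicates 1, 2 and 3 and lines are group means. Control libraries cluster, TBI replicate 2 lies below the other TBI libraries, DEIX replicate 2 lies above the other DEIX libraries, and for all genes but Epb41 the TBI+DEIX libraries lie below every TBI library.

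Slc4a1, the band 3 exchanger (chromosome 11, 102348824 to 102366203, minus strand, with a coding transcript of 20 exons), read 108.1, 81.2 and 102.2 FPKM in control replicates 1 to 3. Irradiated marrow gave 260.3, 56.9 and 151.4 FPKM, and irradiated marrow with DEIX gave 12.5, 50.5 and 12.8 FPKM. Unirradiated marrow with DEIX gave 53.7, 245.9 and 60.5 FPKM. All 3 TBI+DEIX libraries lay below every control, TBI and DEIX library, and TBI and DEIX each reached from below the controls to more than any control. Epb42, which encodes protein 4.2 (chromosome 2, 121017891 to 121037072, minus strand, 13 exons), followed the same course at a lower level, with 11.7, 9.39 and 10.1 FPKM in control and 26.6, 5.79 and 14.4 FPKM in TBI. In TBI+DEIX it read 0.397, 4.69 and 1.16 FPKM, and in DEIX 5.16, 20.9 and 6.34 FPKM. Its TBI+DEIX libraries were again below all others, and replicate 1 stood at 3.82% of the control mean.

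Ank1, the ankyrin that anchors band 3 to spectrin (chromosome 8, 22974844 to 23150497, plus strand, 45 exons in its longest coding transcript), moved over a narrower range. It read 16.1, 14.4 and 14.2 FPKM in control and 30.04, 14.7 and 30.02 in TBI. In TBI+DEIX it read 12.3, 10.6 and 4.95 FPKM, and in DEIX 7.06, 27.8 and 8.49. The TBI+DEIX libraries lay below control and TBI without overlap, but TBI+DEIX replicates 1 and 2 were above DEIX replicates 1 and 3. Other genes lie within Ank1, among them the microRNA gene Mir486 on the same strand, and the table does not separate Ank1's erythroid from its muscle forms. The skeletal muscle markers Myh1 and Myh4 were at or near 0 throughout (0 to 0.0041 FPKM), Ckm reached at most 0.392 and Acta1 0.358, Tnnt3 reached 1.32 and Mylpf read 2.27 to 6.68, and all 6 muscle markers together summed to 2.79 to 7.46 FPKM.

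Sptb, the beta chain of erythroid spectrin (chromosome 12, 76580488 to 76710547, minus strand, 36 exons), read 18.1, 14.9 and 16.2 FPKM in control and 33.7, 13.2 and 30.9 in TBI. In TBI+DEIX it read 8.17, 10.9 and 3.68 FPKM and in DEIX 8.60, 31.9 and 10.1. Every TBI+DEIX value was below every control and TBI value, whereas TBI+DEIX and DEIX overlapped. Sptb shares its locus with Plekhg3 on the opposite strand. The library kit keeps the strand, but whether the authors' counting used it is not given in the sources used here, so reads of overlapping genes may not be separated. Epb41, protein 4.1 (chromosome 4, 131923413 to 132075321, minus strand), varied least over the 12 libraries: 34.4, 32.9 and 37.3 FPKM in control, then 63.7, 33.1 and 41.9 after TBI, 42.6, 36.0 and 34.0 with TBI+DEIX and 34.4, 63.9 and 36.1 with DEIX. All 4 groups overlapped, with TBI replicate 1 and DEIX replicate 2 the highest libraries. The annotation lists 14 coding transcripts for Epb41, and the table gives no level per transcript.

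Rhag, the Rh-associated glycoprotein (chromosome 17, 40811126 to 40840754, plus strand, 10 exons), read 28.9, 25.1 and 24.7 FPKM in control and 44.7, 32.1 and 55.5 in TBI, so that all TBI libraries were above all controls. In TBI+DEIX it read 31.4, 22.9 and 10.2 FPKM, each below every TBI value, and replicate 1 was above every control. In DEIX it read 13.02, 47.1 and 14.0 FPKM, with replicates 1 and 3 at 49.7% and 53.3% of the control mean. Rhd, the Rh polypeptide that pairs with it (chromosome 4, 134864536 to 134896172, plus strand, 10 exons), had 42.5, 44.0 and 48.2 FPKM in control and 70.6, 28.1 and 65.7 in TBI. Unlike Rhag, it read 11.2, 21.2 and 7.38 FPKM in TBI+DEIX, below every control and TBI library. In DEIX it read 16.9, 53.7 and 21.5 FPKM. Kel, the Kell glycoprotein (chromosome 6, 41686330 to 41704339, minus strand, 19 exons), had 29.4, 28.5 and 38.7 FPKM in control and 60.6, 16.9 and 41.3 in TBI. Its TBI+DEIX values, 6.72, 10.8 and 7.39 FPKM, were the tightest of that group relative to their mean apart from Epb41, and lay below every control and TBI value. In DEIX it read 9.62, 31.8 and 12.5 FPKM. Replicate 2 of DEIX, the highest library of that group for all 8 genes, stood at 98.7% of the control mean for Kel and at 253% for Slc4a1.

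**Figure D2:**
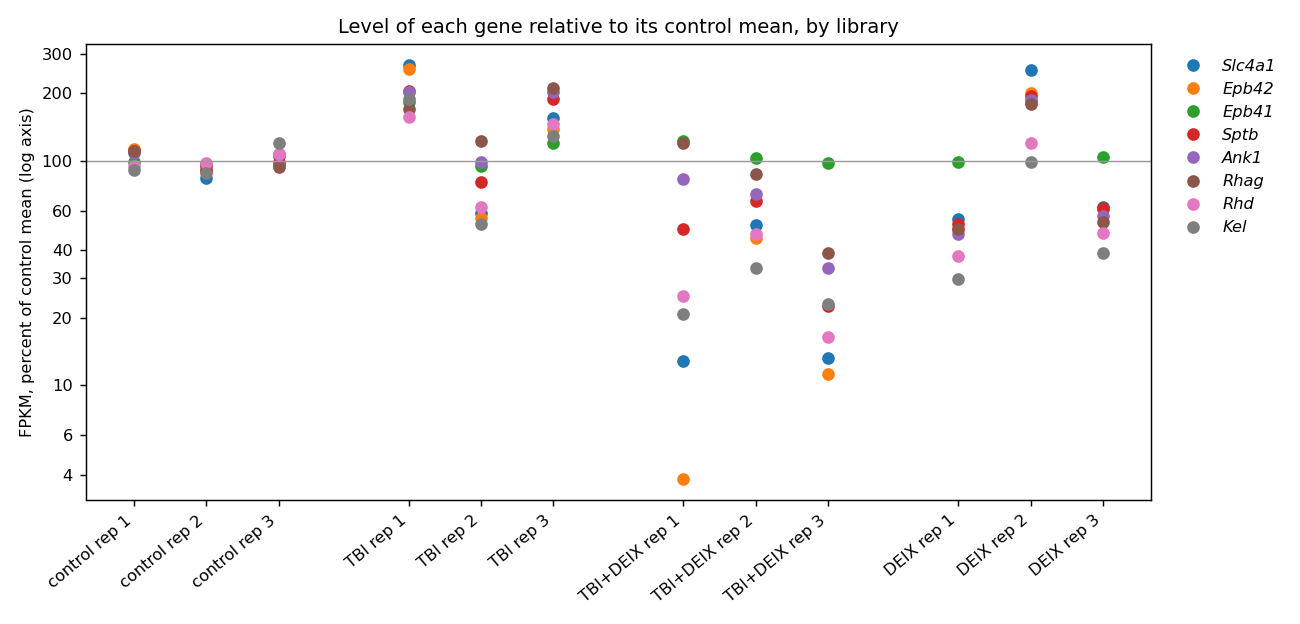
FPKM of each gene as a percentage of its control mean (log axis) in the 12 libraries; each colour is 1 gene and the grey line is 100%. The 8 points of a library lie together in controls and spread out in TBI+DEIX replicates 1 and 3, where Epb42 is lowest and Epb41 highest.

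Irradiation with vehicle gavage was compared with no treatment on log2(FPKM + 1), a scale on which the change of a low gene is understated, by limma across the 10994 genes that passed the filter on low values, all 8 membrane genes among them. None of the 8 differed at an adjusted p under 0.05, in a comparison that called 3.99% of genes. None had an unadjusted p under 0.05 either, as 1988 of all 10994 had. All 8 fitted changes were positive, from 0.13 (SE 0.46) for Kel to 0.70 (SE 0.47) for Rhag, with a median of 0.39 beside 0.05 over all tested genes, and limma's adjusted p ran from 0.471 to 0.918. Rhag was the gene whose TBI libraries all exceeded the controls, an order seen in 22.0% of tested genes. The signs rested on TBI replicate 1: without it the median change was 0.02 and 4 genes were negative. Fitted with the control and TBI libraries alone, Rhag passed, at an adjusted p of 0.042, and the other 7 did not, in a fit that called 1417 genes.

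DEIX after irradiation was compared with irradiation and vehicle, and the 8 genes were all lower on average in TBI+DEIX. Slc4a1 fell by 2.64 on the log2 scale (SE 0.69, limma adjusted p = 0.0418) and Epb42 fell by 2.46 (SE 0.62, adjusted p = 0.0360). Rhd fell by 1.98 (SE 0.46, adjusted p = 0.0322) and Kel fell by 1.98 (SE 0.46, adjusted p = 0.0312). These 4 were called where 3.41% of tested genes were called lower. The other 4 did not pass: Sptb at -1.65 (adjusted p = 0.0610), Ank1 at -1.35 (0.0895), Rhag at -1.10 (0.159) and Epb41 at -0.25 (0.569). The TBI+DEIX libraries lay wholly below the TBI libraries for every gene but Epb41, an order shown by 12.7% of tested genes, and the median change of the 8 was -1.81, beside 0.00 over all tested genes. The band 3 exchanger and its partner protein 4.2 thus had the largest fitted drops, the Rh polypeptide and Kell came next, then spectrin and ankyrin, and protein 4.1 the smallest. No difference between genes in the size of the drop was tested.

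These calls depended on the groups that lent their spread and on single libraries. With the 6 TBI and TBI+DEIX libraries alone in the fit, 0 of 8 passed, the lowest adjusted p being 0.144, and 0 of all genes tested passed. In that fit 7 of 8 had an unadjusted p under 0.05, as had 2015 of all 10994. None of the 8 passed without TBI replicate 1, TBI replicate 3 or TBI+DEIX replicate 3, fits that called 859, 5 and 51 of all genes, against 891 with every library. Without TBI replicate 2, TBI+DEIX replicate 1 and TBI+DEIX replicate 2, 4, 6 and 5 of the 8 passed, in fits that called 345, 2836 and 956 of all genes. None passed without a filter on low values, where 677 of all genes did. With array weights the change of Slc4a1 was -1.40 (adjusted p = 0.0723) and that of Epb42 -1.24 (0.0584), so that these no longer passed, while Ank1 (0.0333) and Rhag (0.0277) did. That fit called 4488 of all 10994 genes. TBI+DEIX replicate 1 was the library furthest down for Epb42 and Slc4a1, whose changes without it came to -2.02 and -2.31, and the median change of the 8 was then -1.80. Whole marrow was sequenced, so fewer cells of a type and less RNA per cell cannot be told apart in any of these values. The summed FPKM of 10 erythroid markers, adult globins among them, moved in the same direction, at 2494 to 12040 in TBI and 290.5 to 2227 in TBI+DEIX, and their part in the result was not tested. Markers of the macrophages of erythroblastic islands summed to 102 to 160 in TBI and 194 to 283 in TBI+DEIX, higher in all 3 libraries, and to 188 to 225 in controls. Hmox1 was the largest part of each sum. Like C1qa, C1qb and Cd163, it was higher in all TBI+DEIX libraries than in any TBI library, an order shown by 1595 of the 10994 tested genes. Vcam1, Spic, Siglec1 and C1qc overlapped between these groups.

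**Figure D3:**
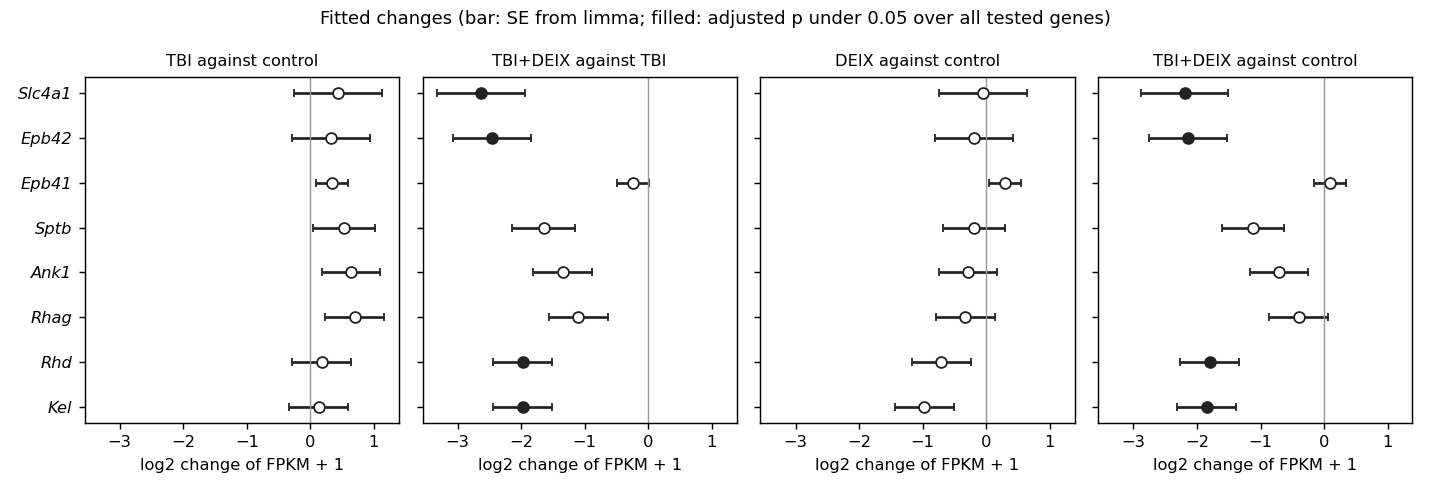
Fitted log2 change of FPKM + 1 for the 8 genes in 4 comparisons; points are limma estimates, bars are 1 SE on each side, and filled points passed an adjusted p of 0.05 over all tested genes. Filled points occur in the comparisons of TBI+DEIX with TBI and with control, for Slc4a1, Epb42, Rhd and Kel in both.

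DEIX without irradiation was compared with no treatment. None of the 8 genes passed, where 7.24% of tested genes did, and none had an unadjusted p under 0.05, as 2718 of all 10994 had. Of the fitted changes 7 were negative, from -0.05 (SE 0.69) for Slc4a1 to -0.97 (SE 0.46) for Kel, and Epb41 was at 0.30 (SE 0.25). Limma's adjusted p ran from 0.220 for Kel to 0.974 for Slc4a1. No gene of the 8 separated the DEIX from the control libraries, which 40.6% of tested genes did. DEIX replicate 2 lay above the other DEIX libraries for all 8. Without that library the median change was -0.81 in place of -0.24 and 4 genes had an unadjusted p under 0.05, as had 2957 of all 10994, none of the 8 passing after adjustment, and without DEIX replicate 1 the median was 0.10. With array weights, which called 4508 of the 10994 genes and rested largely on replicate 2 for the controls, Kel passed, at an adjusted p of 0.037. DEIX replicate 2 also had the highest summed erythroid markers of its group, 11140 FPKM beside 2190 and 1874, and its part in the width of that group was not tested.

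Against untreated controls, 4 of the 8 genes were called lower in irradiated marrow with DEIX, in a comparison that shares its TBI+DEIX libraries with the one against TBI. Slc4a1 fell by 2.20 (SE 0.69, limma adjusted p = 0.0341), Epb42 fell by 2.14 (SE 0.62, adjusted p = 0.0234), Rhd fell by 1.80 (SE 0.46, adjusted p = 0.0143) and Kel fell by 1.85 (SE 0.46, adjusted p = 0.0122), where 13.1% of tested genes were called lower. In FPKM, the 3 TBI+DEIX libraries held 12.8%, 52.0% and 13.2% of the control mean of Slc4a1, and 20.8%, 33.4% and 22.9% of that of Kel. Sptb, at -1.12 (adjusted p = 0.107), and Ank1, at -0.71 (adjusted p = 0.267), had no TBI+DEIX library as high as a control, as had the 4 called genes, an order found for 21.1% of tested genes. Rhag stood at -0.40 (adjusted p = 0.545) and Epb41 at 0.10 (adjusted p = 0.797), both overlapping with control. The count of 4 was also reached with the control and TBI+DEIX libraries alone in the fit, which called 2181 of all genes. The count was 3 without a filter on low values, where Slc4a1 did not pass (adjusted p = 0.0633) and 3637 of all genes did. It was 6 with array weights, where Sptb and Ank1 passed too in a fit that called 6187 of the 10994 genes. The calls fell to 2 without control replicate 1, 2 or 3, while calls over all genes went from 3299 to 2299, 2004 and 2212. They also fell to 2 without TBI+DEIX replicate 1, where calls over all genes rose to 4232. Without TBI+DEIX replicate 3, 1 of the 8 passed and 2676 of all genes, and without TBI+DEIX replicate 2, 4 of the 8 and 3139 of all genes. Kel passed in each of these fits. The summed erythroid markers were lower as well, at 290.5 to 2227 FPKM in TBI+DEIX and 4758 to 7822 in controls, and their part in the result was not tested.

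Whether DEIX acted differently in irradiated and unirradiated marrow was tested as an interaction, the change from TBI to TBI+DEIX minus the change from control to DEIX. No gene of the 8 passed, in a test that called 0.2% of genes. All 8 estimates were negative, from -0.55 (SE 0.36) for Epb41 to -2.58 (SE 0.98) for Slc4a1, and 2 had an unadjusted p under 0.05, Slc4a1 and Epb42, as had 825 of all 10994 genes. Limma's adjusted p for the 8 ran from 0.542 to 0.936. A drop in the presence of irradiation that exceeds the drop without it was therefore not shown for any of these genes.

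Inside single libraries the 8 genes did not keep step. In the 3 controls the highest gene, as a percentage of its control mean, was 1.17 to 1.28 times the lowest, a range set in part by the use of these libraries as the reference. The same ratio was 1.70 to 2.34 in TBI and 2.57 to 3.30 in DEIX. In TBI+DEIX it was 32.0, 3.08 and 8.73 in replicates 1 to 3. Replicate 1 of TBI+DEIX held Epb42 at 3.82%, Slc4a1 at 12.8%, Kel at 20.8% and Rhd at 25.0% of control, together with Sptb at 49.8%, Ank1 at 82.7%, Rhag at 120% and Epb41 at 122%. Replicate 3 had the same gene at the bottom and the same at the top, with Epb42 at 11.2%, Rhag at 39.0% and Epb41 at 97.6%. Replicate 2 was flatter, running from Kel at 33.4% to Epb41 at 103%.

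Ratios between genes of 1 library take out the share of the library that the whole set has, and the ones given here were chosen after the values were seen, so no test was made. Epb42 over Rhag was 0.406, 0.374 and 0.408 in control and 0.396, 0.444 and 0.453 in DEIX, a narrow band although Epb42 varied 4.06-fold and Rhag 3.62-fold within DEIX. In TBI the ratio was 0.595, 0.180 and 0.259, and in TBI+DEIX it was 0.0127, 0.205 and 0.114. For this ratio TBI lay on both sides of the unirradiated libraries and TBI+DEIX below them. Slc4a1 over Rhag lay at 3.23 to 4.14 over the controls and 4.12 to 5.22 over DEIX, but 1.77 to 5.83 over TBI and 0.398 to 2.21 over TBI+DEIX. Kel over Rhag did not overlap between the unirradiated groups: it was 1.02 to 1.57 in the controls and 0.674 to 0.896 in DEIX, beside 0.525 to 1.36 in TBI and 0.214 to 0.722 in TBI+DEIX. Rhd over Rhag was 1.47 to 1.95 in the controls and 1.14 to 1.54 in DEIX, overlapping with them and inside the range of TBI, 0.874 to 1.58, and 0.358 to 0.926 in TBI+DEIX. Slc4a1 over Epb42, by comparison, lay between 8.65 and 11.8 in 11 libraries and reached 31.4 in TBI+DEIX replicate 1, the library in which Epb42 was below 1 FPKM.

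**Figure D4:**
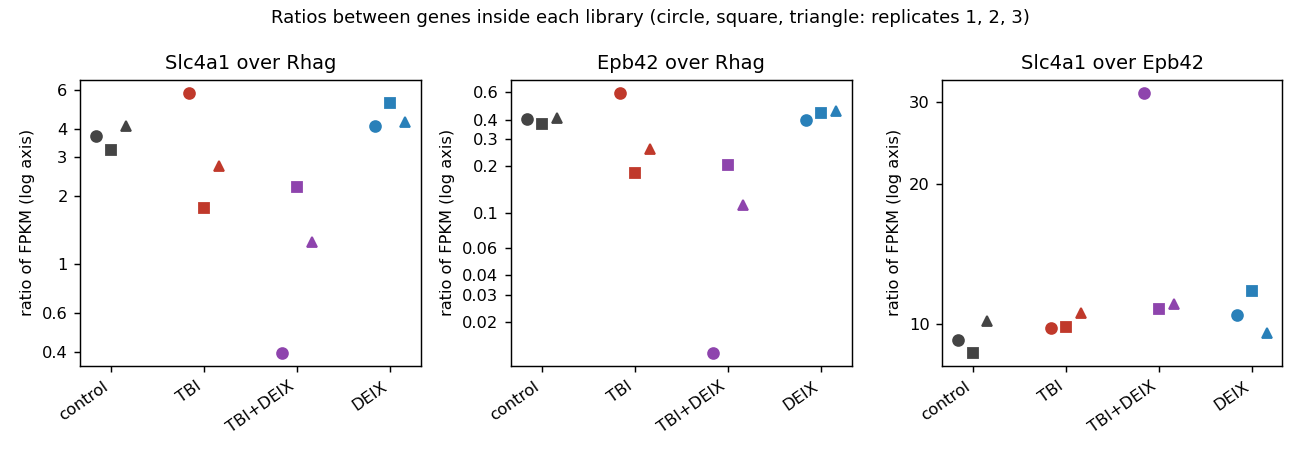
Ratio of FPKM between pairs of genes in each library (log axes), by group; circles, squares and triangles are replicates 1, 2 and 3. Slc4a1 and Epb42 over Rhag are tight in control and DEIX and low in TBI+DEIX, while Slc4a1 over Epb42 departs in TBI+DEIX replicate 1 alone.

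Over the 12 libraries, which include the group differences, Pearson's r of log2(FPKM + 1) between pairs of the 8 genes ran from 0.477 (Epb41 with Rhd) to 0.992 (Slc4a1 with Epb42). Kel with Rhd and Ank1 with Rhag each reached 0.965, and Sptb with Ank1 0.962, whereas Epb42 with Rhag reached 0.579 only. Sptb lay between, at 0.894 with Epb42 and 0.872 with Rhag. Among all tested genes, the nearest to Slc4a1 was Trim10 (r = 0.993), an erythroid ubiquitin ligase gene, and the nearest to Epb42 outside the 8 was again Trim10 (0.990). Btnl10 and Tspan33 (both 0.990) were the nearest to Sptb. Fech, the last enzyme of haem synthesis, was second for Ank1 (0.978) behind Arhgef12 (0.986), and Spire1 (0.978) and Odc1 (0.971) led for Rhag. The nearest to Rhd were Trmo (0.990) and Hemgn (0.985), those to Kel were Fn3krp (0.977) and Tspo2 (0.971), and those to Epb41 were Eif2ak1 (0.909), the haem-regulated kinase gene, and Brpf3 (0.904). These values describe shared levels over libraries and depths, and give no test.

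A wider list of 39 other genes of the red cell membrane, its skeleton, transporters and blood groups was read for comparison, and 38 passed the filter on low values. In TBI+DEIX against TBI, 13 were called lower and 2 higher, with a median of -0.84, where 3.41% of all tested genes were called lower and 4.69% higher. Dmtn, which encodes the actin bundler dematin, read 25.8, 8.16 and 21.5 FPKM in TBI and 1.61, 7.09 and 2.20 in TBI+DEIX, and fell by 2.12 (SE 0.54, limma adjusted p = 0.0384). Its TBI+DEIX libraries all lay below its TBI libraries. Smim1, the Vel blood group gene, fell by 1.94 (adjusted p = 0.0198) and Aqp1, the water channel, fell by 1.87 (0.0349). Also called lower were Slc43a1, Ackr1, Tmod1, Art4, Gypc, Atp2b4, Slc14a1 and Cd59b, between -1.81 and -0.78. Slc2a1, the glucose transporter GLUT1, rose by 1.05 (adjusted p = 0.0146), and Flot2, a lipid raft protein, rose by 0.81 (0.0335). With libraries rescaled to the same FPKM sum 5 were called, all lower, and Slc2a1 (adjusted p = 0.069) and Flot2 (0.169) did not pass, and without a filter 3 were called, in fits that called 157 and 677 of all genes. As in the 8 genes, these counts moved with the libraries in the fit, and so did the calls over all genes. With the compared groups alone 0 of the 38 and 0 of all genes passed, and without TBI replicate 3, 0 of the 38 and 5 of all genes. Without TBI replicate 1, 4 of the 38 and 859 of all genes passed, and without TBI+DEIX replicate 3, 1 and 51. The count was 12 without TBI replicate 2 and 24 and 16 without TBI+DEIX replicates 1 and 2, where 345, 2836 and 956 of all genes were called. With array weights 29 of the 38 were called, 19 of them lower, beside 4488 of all genes.

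**Figure D5:**
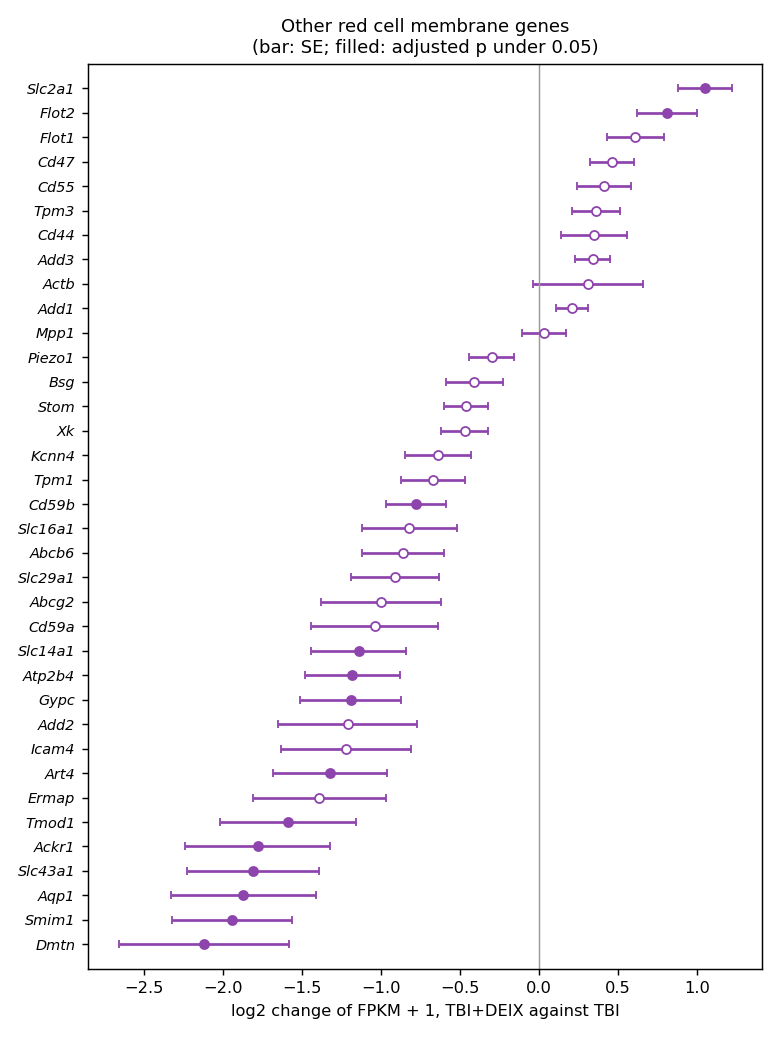
Fitted log2 change of FPKM + 1, TBI+DEIX against TBI, for the other red cell membrane genes that were tested and are reported here; bars are 1 SE on each side and filled points passed an adjusted p of 0.05 over all tested genes. Among the genes drawn Dmtn, at -2.12, is the lowest and Slc2a1, at 1.05, the highest.

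The wider list was also read in the remaining comparisons. TBI against control, which called 3.99% of tested genes, called 1 of the 38, Xk, which encodes the membrane protein that is bound to Kell: it read 14.4, 13.3 and 10.4 FPKM in control and 21.9, 17.4 and 20.8 in TBI and rose by 0.63 (SE 0.15, limma adjusted p = 0.0453). That call held in 2 of 14 alternative fits and was lost without any of the 6 libraries compared, with adjusted p from 0.00154 to 0.19 over the 14. In that comparison 3 of the 38 were called with the compared groups alone and 12 with array weights, beside 1417 and 4218 of all genes. DEIX against control, which called 4.52% of tested genes higher, called 4 genes of the list higher, Slc2a1 by 1.20 (adjusted p = 0.00488), Flot2 by 0.89, Flot1 by 0.67 and Add3 by 0.48, and 0 lower. Slc2a1 read 7.26 to 7.55 FPKM in control and 15.4 to 23.1 in DEIX, and passed in all 14 alternatives, while it was the 1 gene of the list called after rescaling to the same FPKM sum. Without DEIX replicate 2 the call count was 7, of which 5 were lower, beside 938 of all genes, and without any other library compared it was 1, beside 146 to 218 of all genes. With the compared groups alone 9 were called, 2 of them lower, and with array weights 20, of which 10 were lower, beside 2057 and 4508 of all genes. TBI+DEIX against control called 12 lower, among them Aqp1 at -1.83, where 13.1% of tested genes were called lower, and 7 higher, where 16.9% of tested genes were, namely Slc2a1, Flot2, Flot1, Add3, Tpm3, Add1 and Cd47, between 0.51 and 1.43. With libraries rescaled to the same FPKM sum 12 genes were called lower, Gypc no longer among them, and of the higher ones Add1, Add3, Tpm3 and Cd47 no longer passed (adjusted p of 0.13 to 0.281). The 19 calls became 10, 9 and 11 without control replicates 1, 2 and 3 and 10 without TBI+DEIX replicate 3, of which 4 were lower in each, beside 2299, 2004, 2212 and 2676 of all genes. Without TBI+DEIX replicate 1 there were 19 calls, 8 of them lower, beside 4232 of all genes, and with array weights 30, of which 19 were lower, beside 6187. The genes called higher are also made by many white cells, so their levels in whole marrow cannot be assigned to red cells. The interaction called 0 of the 38 and 22 of all genes, with 10 of the 38 and 825 of all 10994 at an unadjusted p under 0.05.

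Relatives of the 8 genes with roles in other tissues were split by the filter on low values, which 7 of 14 passed. No member of this list passed in TBI against control or TBI+DEIX against TBI, where 439 and 891 of all genes did. In each, 2 of the 7 had an unadjusted p under 0.05, as had 1988 and 2986 of all 10994 genes. In TBI+DEIX against control 3 of the 7 were called, where 16.9% of tested genes were called higher and 13.1% lower. Sptan1, the non-erythroid alpha spectrin, rose by 0.59 (limma adjusted p = 0.0102) and Slc4a2, a widely expressed anion exchanger, by 0.50 (0.00247), while Epb41l2, a protein 4.1 relative, fell by 0.48 (0.00475). Slc4a2 read 17.1, 16.3 and 17.1 FPKM in control and 22.8, 24.2 and 25.7 in TBI+DEIX, so that the group in which band 3 was lowest had the highest mean of this relative. All 3 calls were lost when each library was rescaled to the same FPKM sum (adjusted p of 0.0833 to 0.197), a sum that moved with S100a8 and S100a9. Slc4a2 was also called in DEIX against control, at 0.35 (0.0423), where 4.52% of tested genes were called higher, a call lost in 8 of 14 alternative fits.

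An erythroid reference list of genes outside the wider membrane list, of which 23 genes were tested, was read beside the membrane set. In TBI+DEIX against TBI it had 5 genes called lower, Trim10, Hemgn, Tspo2, Prdx2 and Epor, and 0 higher, with a median of -1.30, where 3.41% of tested genes were called lower. Each of the 5 was lost in 6 to 8 of 14 alternative fits, that with the compared groups alone among them. It had 0 called in TBI against control or DEIX against control, where 3.99% and 7.24% of tested genes were called. In these, 1 and 4 of the 23 had an unadjusted p under 0.05, as had 1988 and 2718 of all 10994 genes. In TBI+DEIX against control, 12 were called lower, where 13.1% of tested genes were, the alpha globin genes Hba-a1 and Hba-a2 by 3.26 and 3.70. Of these 12 calls, Tspo2 and Car1 were lost in 0 of 14 alternative fits and the others in 1 to 7. Nfe2 was called higher, by 0.50, where 16.9% of tested genes were, a call lost in 9 of 14. Klf1 read 39.7, 37.6 and 44.6 FPKM in control and 20.8, 33.0 and 15.0 in TBI+DEIX, and Gata1 read 25.0, 25.8 and 28.1 and then 17.7, 20.6 and 11.5, all below control, the order found for 21.1% of tested genes. Neither passed, with limma's adjusted p at 0.132 for Klf1 and 0.190 for Gata1. Tfrc, the transferrin receptor, held 62.8, 72.8 and 37.8 FPKM in TBI+DEIX against 86.6, 80.7 and 72.5 in control, touching the control range. Within TBI+DEIX replicate 1 this list was uneven too: Hba-a1 read 75.4 FPKM, against 1792 to 3146 in control, while Tal1 read 14.7, against 16.8 to 19.8, and Nfe2 read 159, within the control range of 135 to 163.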

How the data were processed

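RNA libraries of whole bone marrow from 4 groups of 3 samples were sequenced. The authors deposited 1 table of FPKM values, with 1 column per library. STAR 2.6, Cufflinks 2.2.1 and mm10 are named in the submitters' processing notes, without role or order. The annotation, filters and strand setting are not given in the sources used here, and read totals are unknown. Cufflinks-type FPKM shares reads between overlapping transcripts by estimation, and a value of 0 can be a failed estimate.

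All 21853 identifiers matched GENCODE vM21 symbols. Values were tested as log2(FPKM + 1) with limma 3.58.1 in R 4.3.3 (mean-variance trend, 4 group means, residual degrees of freedom 8), over the 10994 genes with at least 1 FPKM in at least 3 libraries, with Benjamini-Hochberg adjustment over all of them and a threshold of 0.05. No count model was used, since FPKM are not counts. The code was tested on simulated data. The 8 genes and the other lists were chosen with earlier results of these data known. All 8 are described; of the 39 other membrane genes, the called ones could be named, and the 3 genes nearest to each of the 8 by Pearson's r. Alternatives were the pseudocount, the filter, the scaling, the groups in the fit, array weights, a replicate block and leaving out each library. Some genes of the lists enter the counts and are not reported here by name.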

Additional observations from a re-analysis of the deposited data

How the results depend on the processing

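The 3 libraries a group, the spread shared between groups of unequal scatter and the uncertain depth of the libraries are limits on the calls. The part of depth in them was not tested. Over the 14 alternatives of the TBI+DEIX against TBI comparison, limma's adjusted p ran from 0.0241 to 0.157 for Slc4a1, 0.0215 to 0.151 for Epb42, 0.023 to 0.144 for Rhd and 0.0275 to 0.144 for Kel, and these 4 stayed negative in all 14, Slc4a1 between -3.27 and -1.40 and Epb42 between -3.19 and -1.24, both nearest to 0 with array weights. The default array weights did not converge, so limma's gene-by-gene weights were used. Rescaling to equal FPKM sums moved the median of all tested genes to -0.12 in TBI+DEIX against TBI and in DEIX against control, and the share of higher calls from 57.9% to 34.4% and from 62.4% to 19.1%. In TBI against control that share went from 22.3% to 9.49%, and to 56.7% with array weights, 39.8% with the compared groups alone and 13.9% with median centring, and in TBI+DEIX against control from 56.2% to 30.6% on rescaling. The causes of the changes below were not tested.

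Genes called in TBI against control numbered 439, and 675 without a filter, 134 at a mean of at least 5 FPKM, 253 on rescaling, 1417 with the compared groups alone, 4218 with array weights and 153 to 259 when a library was left out. Of the 8 genes 1 passed with the compared groups alone. Genes called in TBI+DEIX against TBI numbered 891, and 157 on rescaling, 0 with the compared groups alone (2015 at an unadjusted p under 0.05), 4488 with array weights and 5 to 2836 when a library was left out. Of the 8 genes 4 passed, and 0 without a filter or with the compared groups alone, and 0 to 6 when a library was left out. Genes called in DEIX against control numbered 796, and 282 on rescaling, 2057 with the compared groups alone, 4508 with array weights and 146 to 938 when a library was left out, and 1 of the 8 genes passed with array weights. Genes called in TBI+DEIX against control numbered 3299, and 1785 on rescaling, 2181 with the compared groups alone, 6187 with array weights and 2004 to 4232 when a library was left out. Of the 8 genes 4 passed, with 1 to 4 when a library was left out and 3 to 6 over the other alternatives. The interaction called 22 genes, and 11 with a pseudocount of 0.1, 37 without a filter, 7 at a mean of at least 5 FPKM, 532 with array weights and 4 to 331 when a library was left out.

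Replicate numbers are shared by the groups but did not pair the libraries: deviations from the group means correlated at a median r of -0.066 over 18 same-numbered pairs (-0.447 to 0.242), with 3 of 18 over 0.1. With the number as a replicate block, 474 genes were called in TBI+DEIX against TBI, and 0 of the 8 genes in that comparison (lowest adjusted p = 0.0557). Against control the block called 3 of the 8, without Slc4a1 (adjusted p = 0.0517).

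Signs of uncalled changes that reversed were, in TBI against control with array weights, Slc4a1 at -0.15, Epb42 at -0.28, Rhd at -0.32 and Kel at -0.39, in a fit that rested largely on replicate 2 of both groups. Leaving out a library gave, in that comparison, -0.05 (without TBI replicate 1) to 1.03 (without TBI replicate 2) for Slc4a1 and, for the same libraries, -0.15 to 0.86 for Epb42, -0.06 to 0.59 for Rhd and -0.26 to 0.63 for Kel, with Rhd at -0.01 without TBI replicate 3. In DEIX against control it gave -0.75 (without DEIX replicate 2) to 0.34 (without DEIX replicate 1) for Slc4a1 and, for the same libraries, -0.76 to 0.16 for Epb42, -0.75 to 0.14 for Sptb and -0.86 to 0.06 for Ank1. Without DEIX replicate 3, Slc4a1 was at 0.25 and Epb42 and Sptb at 0.03, and without control replicate 1 Slc4a1 was at 0.03. Epb41 ran from -0.46 to 0 in TBI+DEIX against TBI, without TBI replicates 2 and 1, and was at -0.02 in TBI+DEIX against control on rescaling. Rhag was between -0.73 and 0.03 in that comparison. Of the 40 changes of the 8 genes over all alternatives, 20 values reversed sign, 39 lost and 9 gained the threshold, and 532 kept both.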
